A study of Mus musculus with 24 samples.

Results

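Small RNA from homozygous Ddx4 knock-in germ cells was compared between round spermatids and pachytene spermatocytes over 214 piRNA clusters, the genomic intervals from which piRNAs arise. The comparison used 4 libraries, 2 of homozygous knock-in spermatids and 2 of homozygous knock-in spermatocytes, chosen by cell type and genotype from 24 libraries in the series, 12 of which are small RNA. The other small RNA libraries, 2 each, were heterozygous knock-in spermatids, heterozygous knock-in spermatocytes, wild-type spermatids and wild-type spermatocytes, and they served to show where the homozygous change departed from the others. All cells came from mouse testes as enriched fractions after a digestion in a pair of steps, and each small RNA library was built from 200 ng of total RNA with the MGIEasy kit. The labels name the allele only as a DDX4 knock-in, give no age or strain of the mice, and do not say whether the libraries of a group were made from different animals; each p-value below therefore weighs a difference against the spread between libraries alone, and that spread may be technical.

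DDX4, known as VASA, is a DEAD-box RNA helicase of the germ granules, the cytoplasmic bodies of germ cells in which piRNAs are made and stored. piRNAs are short RNAs that guide PIWI proteins to transposon and other RNAs, and male mouse germ cells cut them from long single-stranded cluster transcripts. The full cluster names in the files end in a class, left off the names printed here. Prepachytene clusters, mostly in the ends of protein-coding genes, are active in fetal and early germ cells, pachytene clusters, mostly intergenic, are switched on at the pachytene stage by the transcription factor MYBL1 (A-MYB), and hybrid clusters have traits of both. Here 84 clusters were prepachytene, 30 hybrid and 100 pachytene, and 114 were named for a host gene against 100 that were intergenic.

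Promoter sequences at the edges of clusters are shown for 4 intergenic pachytene clusters among the 10 largest rises and the 10 largest falls, so that the letters around the start of a riser can be set beside those of a faller. They were taken from the RefSeq promoter table of GRCm38.p6, 250 bases before to 50 bases after a gene's start, and each start lay within 250 bases of a cluster's edge. The genes at 10-qA3-2592.1, 17-qC-935.1 and 4-qB3-3994.1 run into the cluster, while that at 5-qF-4633.1 starts 127 bases outside it and runs away from it. Capitals mark the letters GGCNGTT or, on the other strand, AACNGCC, which hold the core that MYB-family factors bind.
5-qF-4633.1, start of 4930519G04Rik, + strand, chr5:114853464-114853763: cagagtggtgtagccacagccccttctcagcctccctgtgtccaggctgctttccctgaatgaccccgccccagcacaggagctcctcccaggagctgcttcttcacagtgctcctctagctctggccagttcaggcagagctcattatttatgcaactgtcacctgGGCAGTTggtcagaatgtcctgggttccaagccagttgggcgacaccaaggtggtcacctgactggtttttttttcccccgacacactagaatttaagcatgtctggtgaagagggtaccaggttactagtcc
10-qA3-2592.1, start of 4930444F02Rik, - strand, chr10:18831881-18832180: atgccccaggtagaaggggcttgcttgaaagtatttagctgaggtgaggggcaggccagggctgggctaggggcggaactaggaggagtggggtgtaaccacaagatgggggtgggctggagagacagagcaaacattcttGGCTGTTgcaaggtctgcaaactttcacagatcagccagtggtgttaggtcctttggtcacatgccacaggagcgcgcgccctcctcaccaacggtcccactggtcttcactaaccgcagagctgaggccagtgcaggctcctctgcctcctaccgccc
17-qC-935.1, start of 1700008K24Rik, - strand, chr17:49113484-49113783: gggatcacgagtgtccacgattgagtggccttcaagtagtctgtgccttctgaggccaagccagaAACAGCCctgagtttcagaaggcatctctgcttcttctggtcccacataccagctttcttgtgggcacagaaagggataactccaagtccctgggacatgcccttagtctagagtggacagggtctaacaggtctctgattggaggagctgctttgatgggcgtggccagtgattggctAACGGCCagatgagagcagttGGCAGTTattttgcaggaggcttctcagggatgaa
4-qB3-3994.1, start of 1700042G15Rik, - strand, chr4:57364243-57364542: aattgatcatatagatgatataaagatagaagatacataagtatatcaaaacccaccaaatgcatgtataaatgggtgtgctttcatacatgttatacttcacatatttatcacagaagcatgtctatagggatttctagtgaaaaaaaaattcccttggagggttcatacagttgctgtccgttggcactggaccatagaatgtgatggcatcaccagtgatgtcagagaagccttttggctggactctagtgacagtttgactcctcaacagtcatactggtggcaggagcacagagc
The promoters at both risers, 5-qF-4633.1 and 10-qA3-2592.1, held 1 match, that at the faller 17-qC-935.1 held 3 and that at the faller 4-qB3-3994.1 held 0. Promoters at the other intergenic pachytene fallers that had one are not shown. They held 0 matches at 10-qA3-143.1, 0 at 8-qE1-3748.1 and 1 at 3-qA2-617.1. Over all clusters with a promoter at an edge, 19 of 45 pachytene promoters held the motif (42.2%), 9 of 21 hybrid promoters (42.9%) and 5 of 55 prepachytene promoters (9.09%), against 12.1% of all 32851 promoters in the table. Among pachytene clusters, 7 of 15 promoters at clusters that were higher in homozygous spermatids held it, 7 of 20 of those that were lower and 5 of 10 of those that did not pass the test. The motif was thus found at risers and fallers alike, and a match is only a match of letters.

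The homozygous spermatid libraries were the shallowest and the least alike. They held 11663755 and 9225294 reads on clusters, against 25883242 and 24864988 in homozygous spermatocytes and 21672427 to 27321242 in the other 8 libraries. Each homozygous spermatid file listed 210 of the 214 clusters and every other file all of them. Of 207 clusters with enough reads for the check, 14 were over 1.5-fold higher in homozygous spermatid library 1 than in library 2, 9 of them prepachytene, and 3 were over 1.5-fold higher in library 2; the count was 0 in each of the other 5 groups. Over all 214 clusters the rank correlation (Spearman's rho) was 0.988 between the homozygous spermatid libraries and 0.998 or more within each other group. The nearest library outside its own group was a wild-type spermatocyte one for both homozygous spermatid libraries (rho 0.968 and 0.980), a heterozygous spermatid one for both homozygous spermatocyte libraries (0.986 and 0.991), and a wild-type spermatid one for both heterozygous spermatocyte libraries (0.996 and 0.995). The nearest profile was therefore from the other stage in each case, and cluster counts hold no marker of cell stage against which the labels could be checked. Whether stage labels were exchanged in a genotype was not tested. Every stage change below takes its sign from the labels, and an exchange within a genotype would turn that genotype's stage changes round, with the comparisons of stage order between genotypes.

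Prepachytene and hybrid clusters took a smaller mean share of the cluster reads in homozygous spermatids, and pachytene clusters a larger one, by small amounts. The pachytene gain rested on a single cluster, 5-qF-4633.1, with a mean of 6.21% in homozygous spermatids against 1.13% in homozygous spermatocytes. It rose by more than its whole class, so the other pachytene clusters together took a smaller share. Its rise also lowers the shares of the other classes. Prepachytene clusters took 15.04% and 13.9% of cluster reads in homozygous spermatids, against 16.7% and 15.03% in homozygous spermatocytes. The groups overlapped, with the difference of means at -1.38 percentage points (two-sided exact permutation p = 0.667). Hybrid clusters took 5.06% and 5.14% in homozygous spermatids, against 6.49% and 6.22% in homozygous spermatocytes, and pachytene clusters 79.9% and 81.0%, against 76.8% and 78.8%. The groups did not overlap for hybrid and pachytene clusters, whose differences were -1.25 and 2.63 points, each with exact permutation p = 0.333, the smallest that 2 libraries against 2 can give (adjusted over the 3 classes, 0.667 for prepachytene and 0.5 for the other classes).

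The prepachytene share moved further in the other genotypes, up in heterozygous and down in wild-type cells. Prepachytene clusters took 10.7% and 9.24% of cluster reads in heterozygous spermatids, against 7.26% and 7.52% in heterozygous spermatocytes. In wild type they took 5.88% and 5.06% in spermatids, against 14.2% and 14.0% in spermatocytes. The prepachytene share of homozygous spermatids thus lay near that of wild-type spermatocytes and above that of both other spermatid groups. Whether fewer cells of a type or less piRNA per cell set such a share cannot be told apart in these bulk libraries.

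**Figure D1:**
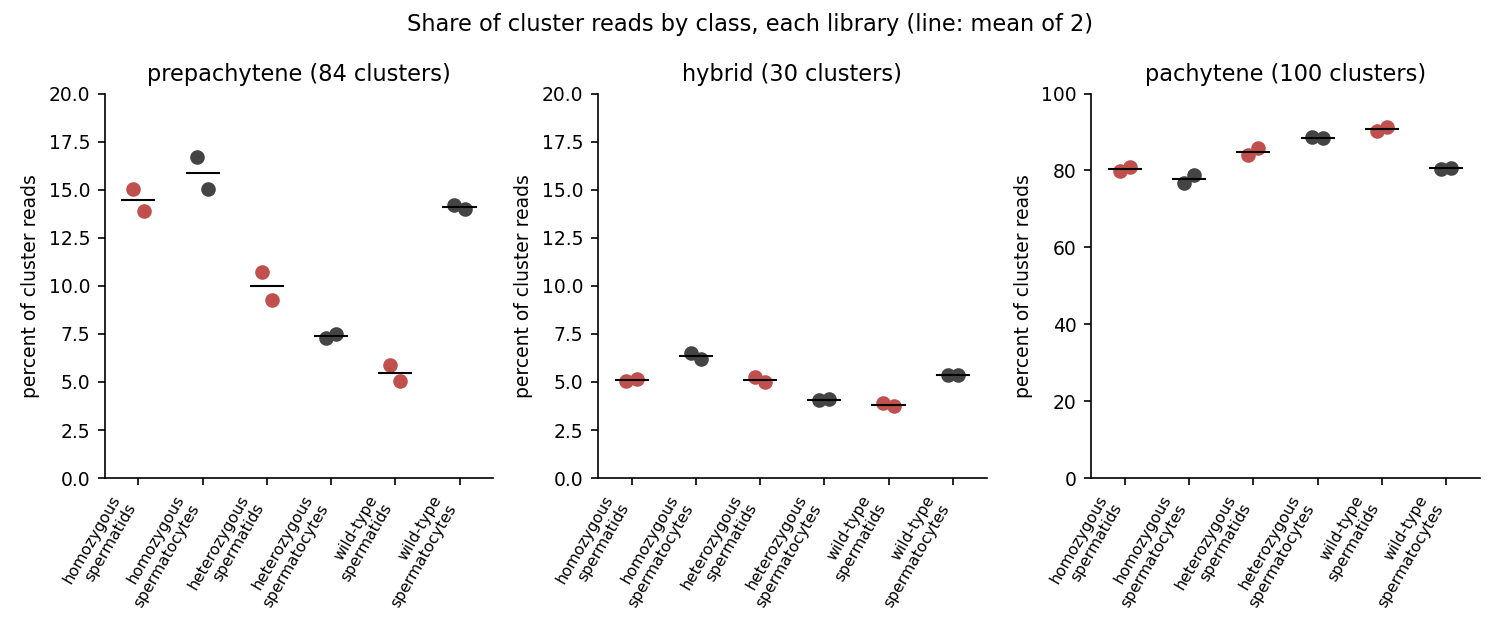
Percent of cluster reads on prepachytene, hybrid and pachytene clusters (y axis, linear) for each of the 12 libraries, grouped by genotype and stage. The prepachytene and hybrid panels share a range, and that of the pachytene panel is wider. Points are libraries and lines the mean of 2. The prepachytene share was 15.04% and 13.9% in homozygous spermatids and 16.7% and 15.03% in homozygous spermatocytes, while in wild type it was 5.88% and 5.06% in spermatids and 14.2% and 14.0% in spermatocytes.

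Most single clusters differed between the homozygous stages. Measured as a share of cluster reads with edgeR's quasi-likelihood test over the 12 small RNA libraries (adjusted p under 0.05), 160 of 214 clusters passed, which is 74.8%. In homozygous spermatids 59 were higher (27.6%) and 101 lower (47.2%), and in all 160 the libraries of the stages did not overlap. The test pools the spread of all 6 groups, and the homozygous spermatid libraries were the furthest apart. The standard deviation of the log2 ratio between the libraries of a group was 0.34 there, against 0.06 to 0.13 in the other groups. The p-values and SEs thus draw on tighter groups, and a fit on the 4 homozygous libraries alone passed fewer clusters. Without regard to the test, 63 clusters had both spermatid libraries above both spermatocyte ones (29.4%) and 116 had both below (54.2%), which leaves 35 with overlap. The median log2 change over all clusters was -0.16, with quartiles at -0.52 and 0.22. At least 2-fold changes were seen in 19 clusters that were higher and 27 that were lower. The 27 include every cluster that was absent from a homozygous spermatid file and counted as 0 there, which a listing minimum may have removed.

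The excess of lower clusters depended on the scale. Scaling by TMM gave 52 higher and 111 lower, but scaling by median ratios gave 91 higher and 48 lower with edgeR and 93 higher and 54 lower with DESeq2. TMM moved the median of all clusters by -0.05 on the log2 scale and median ratios moved it by 0.29, so changes smaller than that have no direction of their own here. Relative to the median of all clusters, a measure that scaling leaves nearly as it is by construction, the hybrid median lay at -0.20, the prepachytene median at -0.04 and the pachytene median at 0.08.

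Of 30 hybrid clusters, 19 were lower in homozygous spermatids, 5 were higher and 6 did not pass, with a median log2 change of -0.35 on the share scale. By median ratios 6 hybrid clusters were higher and 7 lower. The prepachytene class had 37 lower, 15 higher and 32 that did not pass of 84 (median -0.20), and by median ratios 14 lower and 31 higher. Pachytene clusters split most evenly, with 39 higher, 45 lower and 16 that did not pass of 100 (median -0.07), and by median ratios 54 higher and 27 lower. Clusters named for a host gene counted 23 higher and 51 lower of 114, and intergenic ones 36 higher and 50 lower of 100.

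**Figure D2:**
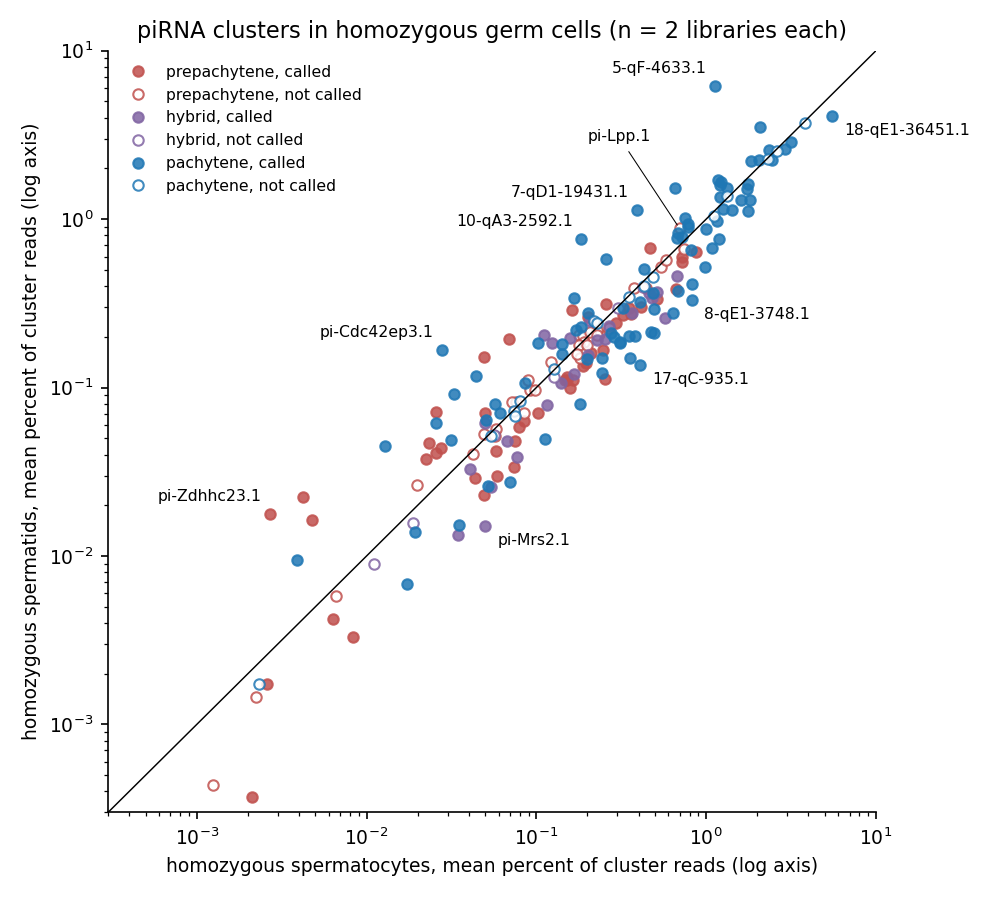
Mean percent of cluster reads of each piRNA cluster in homozygous spermatids (y, log axis) against homozygous spermatocytes (x, log axis), 2 libraries each; the line marks equal shares, filled points passed the test and colours give the class. The 3 clusters without listed reads in both spermatid libraries cannot be drawn on a log axis. Cluster 5-qF-4633.1 stands farthest above the line among abundant clusters, and most others lie close to it.

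The most abundant cluster changed identity between the stages. The intergenic pachytene cluster 5-qF-4633.1 (mm10 chromosome 5, 114834170 to 114853587, as the files give it) took 6.49% and 5.94% of cluster reads in homozygous spermatids, against 1.14% and 1.12% in homozygous spermatocytes. It ranked 1 in both spermatid libraries, against 26 and 28 in the spermatocyte libraries. The log2 change was 2.46 (SE 0.04, adjusted p = 7.8e-11), and per length the cluster rose to an RPKM (reads per kb, scaled to the cluster reads) of 3199.7 in homozygous spermatids, against 581 in homozygous spermatocytes. The homozygous spermatids stood alone in this: the cluster took 1.19% and 1.22% in heterozygous spermatids, 1.36% and 1.44% in heterozygous spermatocytes, 1.55% and 1.54% in wild-type spermatids, and 1.57% and 1.58% in wild-type spermatocytes.

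Several other abundant intergenic pachytene clusters also rose. Cluster 5-qF-14224.1, on the same chromosome band, took 3.34% and 3.71% in homozygous spermatids, against 2.07% and 2.07% in homozygous spermatocytes (log2 change 0.77, SE 0.04, adjusted p = 1.4e-07). For 7-qD1-19431.1 the shares were 1.14% and 1.13% in homozygous spermatids, against 0.386% and 0.399% in homozygous spermatocytes (log2 change 1.53, SE 0.03, adjusted p = 2.4e-10). Cluster 10-qA3-2592.1 took 0.700% and 0.826% in homozygous spermatids, against 0.181% and 0.188% in homozygous spermatocytes (log2 change 2.05, SE 0.08, adjusted p = 4.0e-08). In all 3 the spermatid libraries lay well above the spermatocyte ones and close to each other. Unlike 5-qF-4633.1, 5-qF-14224.1 and 7-qD1-19431.1 did not stand above wild type. For 5-qF-14224.1 the mean share was 3.52% in homozygous spermatids, 3.41% in wild-type spermatids and 3.50% in wild-type spermatocytes. For 7-qD1-19431.1 these means were 1.14%, 1.93% and 1.15%, and for 10-qA3-2592.1 they were 0.763%, 0.581% and 0.657%.

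The other largest clusters moved little. The cluster with the highest mean share over the 4 homozygous libraries, 18-qE1-36451.1, took 4.0% and 4.18% in homozygous spermatids, against 5.42% and 5.57% in homozygous spermatocytes (log2 change -0.43, SE 0.03, adjusted p = 5.0e-07). Clusters 6-qF3-28913.1, 5-qG3-23659.1 and 15-qD1-17920.1 fell by 0.13, 0.15 and 0.12 on the log2 scale, and 9-qC-31469.1 rose by 0.12. Clusters 2-qE1-35981.1, 17-qA3.3-26735.1 and 7-qD2-24830.1 had log2 changes of -0.03, -0.05 and -0.02 and did not pass. By median ratios all of 6-qF3-28913.1, 5-qG3-23659.1 and 15-qD1-17920.1 turned positive, at 0.15, 0.13 and 0.16. On that scale 18-qE1-36451.1 did not pass in edgeR, and 9-qC-31469.1 did not pass under TMM.

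Among clusters named for host genes, the largest rise in both spermatid libraries alike was that of pi-Cdc42ep3.1, a pachytene cluster at Cdc42ep3, whose protein binds the GTPase CDC42. It took 0.156% and 0.179% in homozygous spermatids, against 0.0278% and 0.0277% in homozygous spermatocytes (log2 change 2.60, SE 0.14, adjusted p = 1.5e-07). The prepachytene cluster pi-Igsf9b.1, at the gene of an immunoglobulin-domain adhesion protein, took 0.0217% and 0.0234% in homozygous spermatids, against 0.00347% and 0.00500% in homozygous spermatocytes (log2 change 2.41). A further prepachytene cluster, pi-Hif1an.1, at the gene of an asparagine hydroxylase that acts on HIF-1, took 0.0163% and 0.0162% in homozygous spermatids, against 0.00415% and 0.00538% in homozygous spermatocytes (log2 change 1.77). For each of these clusters the lowest spermatid library was above the highest spermatocyte one by more than the libraries of a stage differed.

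Other large rises rested more on 1 spermatid library. The prepachytene cluster pi-Zdhhc23.1, at the gene of a palmitoyltransferase, took 0.0275% and 0.00810% in homozygous spermatids, against 0.00262% and 0.00275% in homozygous spermatocytes. Its log2 change of 2.73 (SE 0.45, adjusted p = 0.00043) was 1.59 without spermatid library 1 and 3.36 without spermatid library 2. Likewise pi-1700016M24Rik.1 (0.0619% and 0.0276% in homozygous spermatids, against 0.0125% and 0.0133% in homozygous spermatocytes) had a log2 change of 1.80, which was 1.10 without spermatid library 1. For pi-Tfcp2l1.1, at a transcription factor gene, the shares were 0.260% and 0.129%, against 0.0713% and 0.0661% (log2 change 1.5, and 0.91 without spermatid library 1). For pi-Ppp1r15b.1, at the gene of a regulatory subunit of the eIF2-alpha phosphatase, library 2 was the higher one, with 0.116% and 0.187% in homozygous spermatids against 0.0523% and 0.0460% in homozygous spermatocytes (log2 change 1.62). All 4 passed the test without either spermatid library.

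The largest changes were taken among clusters with at least 1000 reads in the mean of the higher stage, which left out those counted as 0. The largest falls there spanned a narrower range than the largest rises, with log2 changes of -1.72 to -1.21 against 1.5 to 2.73. The hybrid cluster pi-Mrs2.1, at the gene of a mitochondrial magnesium channel, had the largest, with 0.0148% and 0.0154% in homozygous spermatids against 0.0497% and 0.0498% in homozygous spermatocytes (log2 change -1.72, SE 0.09, adjusted p = 1.4e-07). The short pachytene cluster 17-qC-935.1 (1241 bases) took 0.145% and 0.127% in homozygous spermatids, against 0.406% and 0.408% in homozygous spermatocytes (log2 change -1.58, SE 0.08). Despite the fall it was dense per length, at an RPKM of 1094.5 in homozygous spermatids and 3278.5 in homozygous spermatocytes. For 8-qE1-3748.1 the shares were 0.317% and 0.348% in homozygous spermatids, against 0.783% and 0.865% in homozygous spermatocytes (log2 change -1.31), and for 4-qB3-3994.1 they were 0.264% and 0.291%, against 0.635% and 0.649% (log2 change -1.21). The remaining clusters of the 10 largest falls were pi-Exoc8.1, at an exocyst subunit gene, 10-qA3-143.1, 13-qA3.1-213.1, pi-Zbtb49.1, at a zinc-finger protein gene, pi-1700006A11Rik.1 and 3-qA2-617.1, with log2 changes of -1.37, -1.36, -1.34, -1.33, -1.24 and -1.24.

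**Figure D3:**
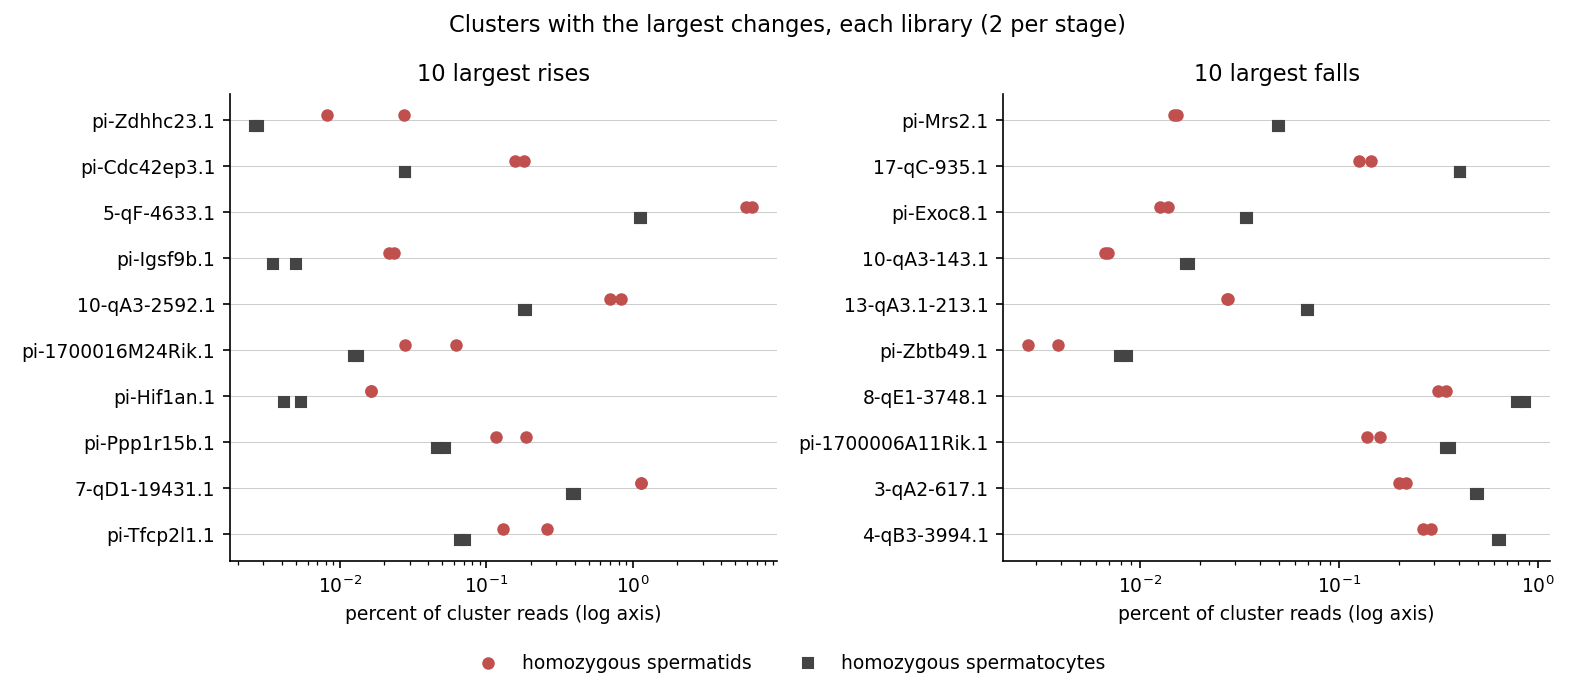
Percent of cluster reads (x, log axis) in each homozygous spermatid library (circles) and each homozygous spermatocyte library (squares) for the 10 clusters with the largest rises and the 10 with the largest falls, 2 libraries per stage. The spermatid libraries of pi-Zdhhc23.1 lie apart, at 0.0275% and 0.00810%, while those of the fallers such as pi-Mrs2.1 (0.0148% and 0.0154%) nearly coincide.

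The leading clusters of the smaller classes behaved unlike each other. The largest prepachytene cluster by share, pi-Lpp.1, at the gene of a LIM-domain protein of focal adhesions, took 1.15% and 0.610% in homozygous spermatids, against 0.702% and 0.693% in homozygous spermatocytes. The spermatid libraries fell on either side of the spermatocyte ones, and the log2 change of 0.34 (SE 0.22) did not pass on the share scale (adjusted p = 0.19) but passed by median ratios; without spermatid library 1 it was -0.19 (adjusted p = 0.034) and without library 2 it was 0.72 (adjusted p = 1.1e-05). The largest hybrid cluster, pi-Cbl.1, at the gene of an E3 ubiquitin ligase, took 0.447% and 0.470% in homozygous spermatids, against 0.685% and 0.661% in homozygous spermatocytes (log2 change -0.55, SE 0.05, adjusted p = 3.9e-06). The 5 hybrid clusters that were higher, named here after their values were seen because they are few, were pi-Mgll.1 (log2 change 0.87), pi-Tacc1.1 (0.59), pi-Tbl2.1 (0.31), pi-Zmat3.1 (0.31) and pi-Eif2c2.1 (0.27), at the gene of the Argonaute protein AGO2.

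Clusters absent from a homozygous spermatid file were counted as 0, and all 5 were prepachytene with few reads. Cluster pi-Mafg.1, at the gene of a small MAF transcription factor, had 0 and 0 reads in homozygous spermatids, against 388 and 410 in homozygous spermatocytes, and at the spermatocyte share 183 and 145 reads would have stood in the spermatid files. For 1-qE2.3-2.1 the reads were 0 and 0, against 162 and 111, and for pi-Hist1h1a.1, at a linker histone gene, 0 and 0, against 124 and 130. Cluster pi-Lsmd1.1 had 86 and 0 reads in homozygous spermatids, against 582 and 494 in homozygous spermatocytes, and pi-Foxo3.1, at a forkhead transcription factor gene, 0 and 80, against 314 and 322. The lowest reads listed were 86 and 68 in the spermatid files and 124 and 111 in the spermatocyte files, so whether a listing minimum removed these clusters cannot be told from the files, and no fold change is given for them. Counted as 0, all but pi-Foxo3.1 passed the test; its adjusted p was 0.13, 0.15 without spermatid library 1 and 3.0e-05 without spermatid library 2. The call of pi-Lsmd1.1 was lost in DESeq2, in the fit on the homozygous libraries alone, without the heterozygous libraries and without homozygous spermatocyte library 1.

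Neighbouring clusters differed in the size of their change, and the count that moved in opposite directions depended on the scale. Among the clusters, 15 pairs, all of them pachytene, lay within 1000 bases of each other, with gaps of 38 to 195 bases. Both clusters passed the test in 13 pairs, of which 5 were higher together, 2 lower together and 6 opposite on the share scale. TMM also gave 6 opposite pairs, but by median ratios in edgeR both clusters passed in 9 pairs, all 9 of them higher together. The pair pi-1700016M24Rik.1 and 15-qD3-14639.1 rose together, with log2 changes of 1.80 and 1.22, as did 7-qF3-3125.1 and 7-qF3-246.1, with 1.40 and 1.28. Both of the latter stood higher in spermatid library 1 than in library 2. Their shares there were 0.145% and 0.0888% for 7-qF3-3125.1, against 0.0434% and 0.0451% in homozygous spermatocytes. For 7-qF3-246.1 they were 0.0795% and 0.0445%, against 0.0254% and 0.0256%. Across a gap of 38 bases, 7-qD1-19431.1 rose by 1.53 while 7-qD1-654.1 had a log2 change of -0.42, the widest difference within a pair. Over the 15 pairs the rank correlation of the changes was 0.30, and the clusters of a pair share libraries and scaling. Neither cluster length (rho 0.06) nor the spermatocyte share (rho -0.11) ran with the log2 change over 209 clusters listed in all homozygous libraries, which share depth and total. The spermatocyte share is also the denominator of the log2 change, so the rho of -0.11 is not between independent measures.

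**Figure D4:**
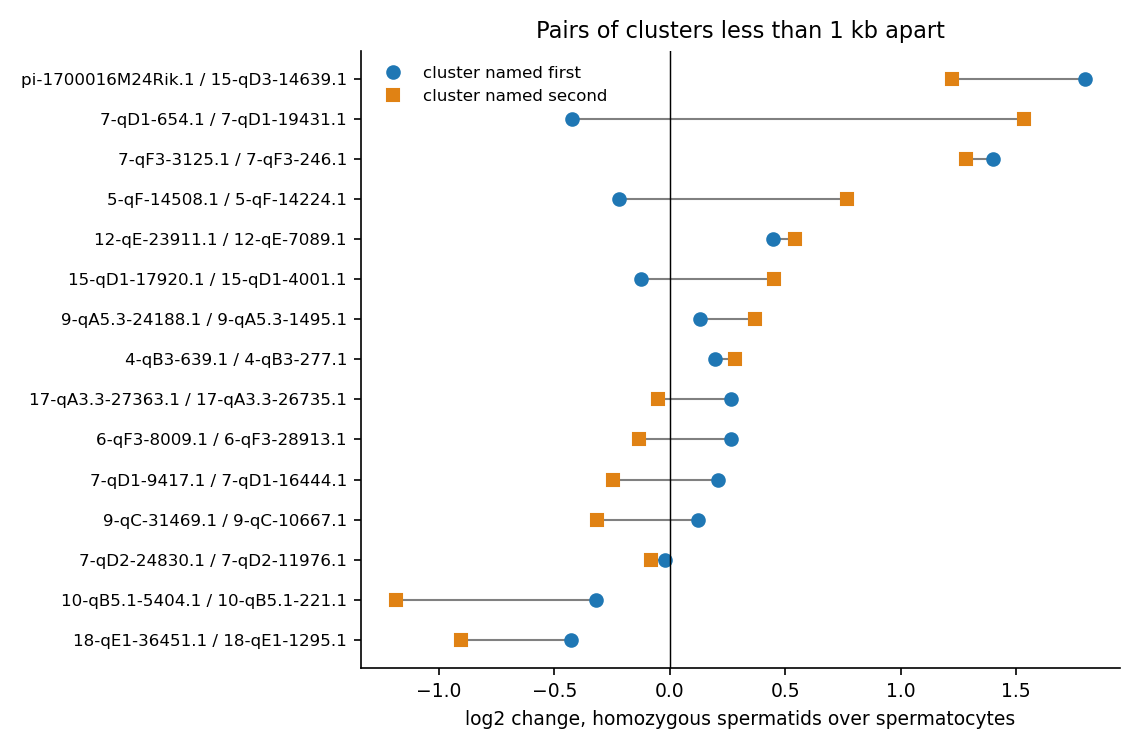
Log2 change of homozygous spermatids over spermatocytes (x) for the 15 pairs of pachytene clusters with a gap under 1 kb; a circle marks the cluster named first, a square the one named second, and a line joins them. The pair 7-qD1-654.1 and 7-qD1-19431.1 spans -0.42 to 1.53, while 7-qF3-3125.1 and 7-qF3-246.1 lie together at 1.40 and 1.28.

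The homozygous change between stages was unlike the wild-type one for most clusters. With the difference of the stage changes tested directly in edgeR, 173 of 214 clusters passed (80.8%), 110 with a more positive change in homozygous cells (51.4%) and 63 with a more negative one (29.4%). That majority was reversed under TMM, with 64 more positive and 107 more negative, and was 101 against 74 by median ratios. Prepachytene clusters carried most of the first group: 69 of 84 were more positive and 6 more negative, with a median difference of 1.07 on the log2 scale, against 0.31 over all clusters. The median prepachytene change between stages was -0.20 in homozygous cells, against -1.32 in wild-type cells. Under TMM, which moved the median of all clusters by -0.59, 48 prepachytene clusters were more positive and 12 more negative, and under median ratios 68 and 8.

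Pachytene clusters ran the other way, with 28 more positive and 50 more negative in homozygous cells (median difference -0.23). The median pachytene change between stages was -0.07 in homozygous cells, against 0.17 in wild-type cells, and the excess of more negative clusters grew to 13 against 78 under TMM and 20 against 57 under median ratios. Hybrid clusters had 13 more positive and 7 more negative on the share scale, against 3 and 17 under TMM, so their direction depended on the scale. The 6 prepachytene clusters that were more negative, named after their values were seen, were pi-Zbtb49.1 (-0.79), pi-Rplp1.1 (-1.69) and 4 of the clusters counted as 0.

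By smallest p, the clusters with a more positive stage change in homozygous than in wild-type cells were 5-qF-4633.1 (log2 difference 2.49), 15-qD3-14639.1 (1.21), 10-qA3-2592.1 (2.23), pi-Map3k9.1 (2.19), at a MAP kinase kinase kinase gene, pi-Cdc42ep3.1 (3.24) and 7-qD1-19431.1 (0.79). Of these pi-Map3k9.1 was the sole prepachytene cluster. It took 0.275% and 0.302% in homozygous spermatids, 0.166% and 0.159% in homozygous spermatocytes, 0.0601% and 0.0542% in wild-type spermatids, and 0.147% and 0.147% in wild-type spermatocytes. The share was thus higher in spermatids than in spermatocytes of homozygous cells and lower in spermatids than in spermatocytes of wild-type cells. For 15-qD3-14639.1 and 7-qD1-19431.1 the mean share was lower in homozygous than in wild-type spermatids, at 1.53% against 1.95% and 1.14% against 1.93%. In spermatocytes it was lower by more, at 0.654% against 1.93% and 0.393% against 1.15%. The other clusters with a more positive change had higher mean shares in homozygous than in wild-type spermatids. The clusters with a more negative stage change were 4-qB3-3994.1 (-2.47), 6-qC3-6258.1 (-1.54), 18-qE1-36451.1 (-0.84), 9-qC-10667.1 (-0.89), 8-qE1-3748.1 (-2.36) and pi-1700006A11Rik.1 (-2.09), all pachytene. Cluster 4-qB3-3994.1 took 0.264% and 0.291% in homozygous spermatids, 0.635% and 0.649% in homozygous spermatocytes, 0.508% and 0.550% in wild-type spermatids, and 0.222% and 0.221% in wild-type spermatocytes, so that its stages stood in opposite order.

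Set against heterozygous cells, with the same homozygous libraries, 160 clusters passed (74.8%), 42 with a more positive change in homozygous cells (19.6%) and 118 with a more negative one (55.1%). Prepachytene clusters were more negative in 51 cases and more positive in 6 (median difference -0.57), hybrid ones in 21 and 2 (-0.77) and pachytene ones in 46 and 34 (-0.11). The prepachytene median change between stages was -0.20 in homozygous and 0.42 in heterozygous cells. The prepachytene and hybrid majorities kept their direction under each scaling, but not their size. Median ratios moved the median of all clusters by 0.51. They left 17 prepachytene clusters more positive and 21 more negative, and 8 and 13 hybrid ones. The pachytene majority turned positive under TMM, median ratios and DESeq2, and the majority over all clusters under median ratios and DESeq2.

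The clusters of smallest p with a more positive stage change in homozygous than in heterozygous cells were 15-qD3-14639.1 (2.56), 7-qD1-19431.1 (3.32), 5-qF-4633.1 (2.68), 15-qE1-8387.1 (2.37), 12-qE-23911.1 (1.33) and 10-qA3-2592.1 (3.17). Except for 5-qF-4633.1 and 10-qA3-2592.1, their homozygous spermatid shares lay below those of heterozygous spermatocytes, while homozygous spermatocytes and heterozygous spermatids shared the low values. Cluster 15-qD3-14639.1 took 1.54% and 1.52% in homozygous spermatids, 0.650% and 0.659% in homozygous spermatocytes, 0.686% and 0.688% in heterozygous spermatids, and 1.75% and 1.73% in heterozygous spermatocytes. Those of smallest p with a more negative change were 18-qE1-1295.1 (-1.91), 10-qC1-2617.1 (-1.08), 17-qC-935.1 (-2.63), 6-qC3-6258.1 (-1.47), 10-qB5.1-221.1 (-1.96) and 8-qE1-3748.1 (-2.46). Cluster 17-qC-935.1 took 0.145% and 0.127% in homozygous spermatids, 0.406% and 0.408% in homozygous spermatocytes, 0.405% and 0.404% in heterozygous spermatids, and 0.197% and 0.193% in heterozygous spermatocytes. The stage order was again opposite between the genotypes.

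**Figure D5:**
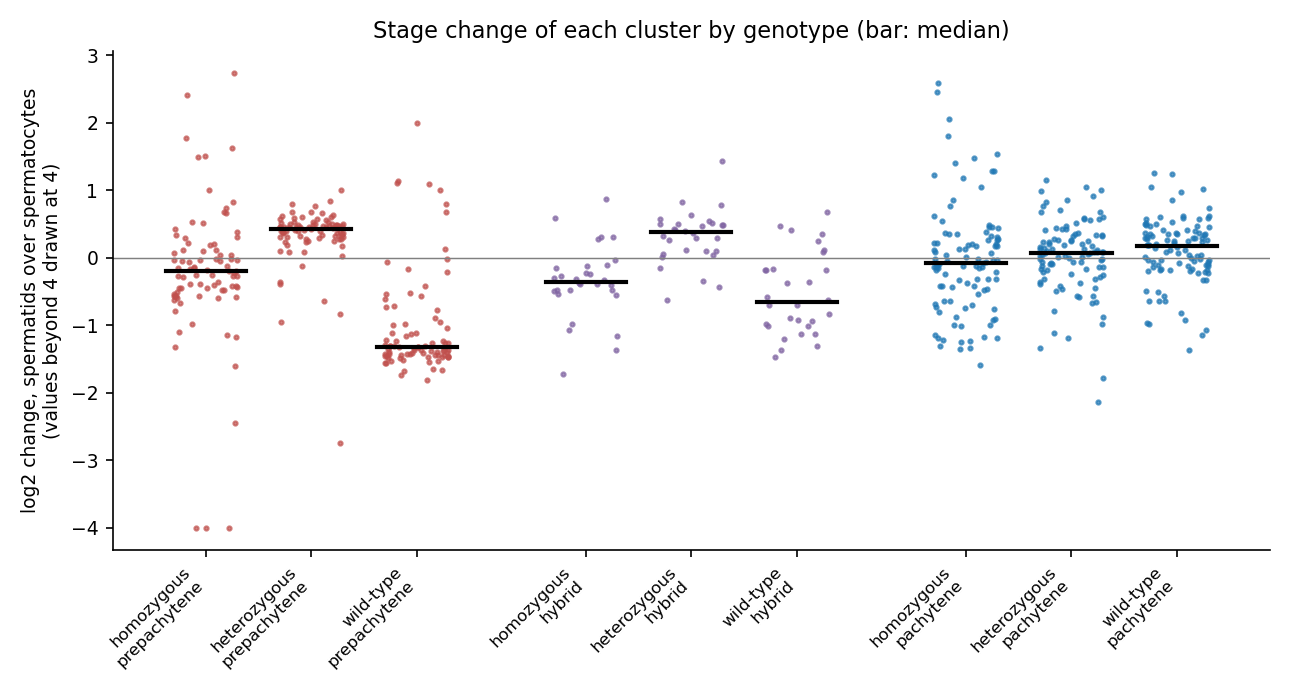
Log2 change of spermatids over spermatocytes (y) for each cluster, by class and genotype; bars are medians and changes beyond 4 are drawn at 4. Prepachytene medians lie at -0.20 in homozygous, 0.42 in heterozygous and -1.32 in wild-type cells, while the pachytene medians lie at -0.07, 0.08 and 0.17.

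The RNA of the host genes was available for spermatids alone, from separate RNA libraries, and is given as a description. At the riser pi-Cdc42ep3.1, the host RNA was at 127 and 123 TPM (a level per transcript length and depth) in homozygous spermatids, against 28.0 and 42.2 TPM in wild-type spermatids. At the faller pi-1700006A11Rik.1 it was at 48.0 and 42.1 TPM in homozygous spermatids, against 5.90 and 6.29 TPM in wild-type spermatids. Host RNA was thus higher in homozygous than in wild-type spermatids at both. Riser and faller refer to the homozygous stages, while host RNA was compared between genotypes, so the contrasts are unlike. Between the same spermatid genotypes, the mean share of pi-Cdc42ep3.1 was 0.168% in homozygous against 0.0574% in wild-type spermatids. That of pi-1700006A11Rik.1 was 0.150% against 0.231%. For Map3k9 it was at 7.0 and 6.73 TPM, against 0.78 and 2.41 TPM, and for Lpp at 112 and 115 TPM, against 82.4 and 98.7 TPM. Matched hosts of genic clusters were also grouped by the homozygous stage change of their cluster. For clusters higher in spermatids than in spermatocytes, 13 of 23 hosts were higher in both homozygous RNA libraries than in both wild-type ones. The count was 27 of 49 for clusters that were lower and 15 of 40 for those that did not pass. Over all matched hosts it was 55 of 112 (49.1%), against 27.2% of the 27970 genes with a TPM above 0 in any of these libraries; with a mean of at least 1 TPM it was 45 of 84 hosts (53.6%), against 34.3% of 14898 genes. Wild-type RNA library 1 lay below library 2 in the median over hosts, at 2.88 against 5.48 TPM for the hosts of higher clusters, and its part in these counts was not tested.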

How the data were processed

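Each of the 12 small RNA libraries came with a deposited table of whole-number read counts per piRNA cluster; per the submitters' processing notes reads were trimmed with Trim Galore and mm10 was the genome. How reads were aligned and counted, and how reads with several positions were treated, is not stated in these sources. Host RNA values are TPM as the authors deposited them. Clusters missing from a file were counted as 0. Counts were fitted in R 4.3.3 with edgeR 4.0.16 (quasi-likelihood F test, library size the total of cluster reads, filterByExpr, which kept all 214 clusters, 6 groups, 6 residual degrees of freedom), with Benjamini-Hochberg adjustment over all clusters and a threshold of 0.05. RPKM of a cluster divides its reads by its length and by the cluster reads. Fold changes are of shares of cluster reads, so a rise of 1 large cluster lowers the others. Alternatives were TMM, median-ratio scaling, DESeq2 1.42.0, a fit on 4 libraries, a replicate block and leaving out each library. Fits were tested on simulated data with the same spread in all libraries, so the wider spread of the homozygous spermatid libraries was not tested. Named clusters were the 10 of largest mean share, the 10 largest rises and falls among those past the threshold without overlap and with at least 1000 reads, those not listed, the 6 of smallest p per direction of each difference between genotypes, and the largest of each class. Members, lists and rules were chosen with earlier results of these data known. Whether the coordinates count their start from 0 or 1 is not stated in the files.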

Additional observations from a re-analysis of the deposited data

Results flagged for a closer look

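The stage change of homozygous cells differed from that of wild-type cells by a test of the difference itself in 173 clusters, more positive in 110 and more negative in 63. Named among them were 5-qF-4633.1 (log2 difference 2.49), 15-qD3-14639.1 (1.21), 10-qA3-2592.1 (2.23), pi-Map3k9.1 (2.19), pi-Cdc42ep3.1 (3.24) and 7-qD1-19431.1 (0.79), and, in the negative direction, 4-qB3-3994.1 (-2.47), 6-qC3-6258.1 (-1.54), 18-qE1-36451.1 (-0.84), 9-qC-10667.1 (-0.89), 8-qE1-3748.1 (-2.36) and pi-1700006A11Rik.1 (-2.09).

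The stage change of homozygous cells differed from that of heterozygous cells in 160 clusters, more positive in 42 and more negative in 118. Named among them were 15-qD3-14639.1 (2.56), 7-qD1-19431.1 (3.32), 5-qF-4633.1 (2.68), 15-qE1-8387.1 (2.37), 12-qE-23911.1 (1.33) and 10-qA3-2592.1 (3.17), and, in the negative direction, 18-qE1-1295.1 (-1.91), 10-qC1-2617.1 (-1.08), 17-qC-935.1 (-2.63), 6-qC3-6258.1 (-1.47), 10-qB5.1-221.1 (-1.96) and 8-qE1-3748.1 (-2.46). Both comparisons use the same 4 homozygous libraries. Each named difference kept its direction and passed the test under every alternative run.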

How the results depend on the processing

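Homozygous spermatids over spermatocytes gave 91 higher and 48 lower with median-ratio scaling and 93 and 54 with DESeq2. The difference from wild type gave 64 more positive and 107 more negative under TMM, and that from heterozygous cells gave 80 and 61 with median ratios and 85 and 67 with DESeq2. With median ratios and with DESeq2 alike, the log2 change turned positive for 15-qD1-17920.1 (0.16), 17-qA3.3-26735.1 (0.24), 2-qE1-35981.1 (0.25), 5-qG3-23659.1 (0.13), 6-qF3-28913.1 (0.15) and 7-qD2-24830.1 (0.27). Leaving out homozygous spermatid library 1 or 2 gave 0.012 or -0.11 for 17-qA3.3-26735.1 and -0.19 or 0.72 for pi-Lpp.1. Leaving out 1 library at a time gave 131 to 171 changed clusters between the homozygous stages (47 to 65 higher, 78 to 106 lower), 163 to 189 for the difference from wild type (104 to 115 and 59 to 74) and 147 to 178 for that from heterozygous cells (39 to 49 and 107 to 130). Class differences ran between -2.20 and -0.55 points for prepachytene, -1.39 and -1.12 for hybrid and 1.67 and 3.59 for pachytene clusters. A fit on the 4 homozygous libraries alone passed 118 clusters, and a fit without the 4 heterozygous libraries, chosen after seeing the data, 147.

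Libraries with the same number did not deviate together in homozygous or wild-type cells (correlation of deviations -0.10 and 0.03 over 207 clusters). In heterozygous cells they tended to deviate in opposite directions (-0.45). With the replicate number as a replicate block 148 clusters passed between the homozygous stages, 167 for the difference from wild type and 155 for that from heterozygous cells. With the homozygous and heterozygous numbers crossed, also chosen after seeing the data, the counts were 157, 173 and 158. The low-count filter removed no cluster. Reads are not independent molecules, and libraries of 1 group differed by far more than counting error (chi-square over its degrees of freedom 431 in homozygous spermatids and 184 in homozygous spermatocytes).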
